A study of Homo sapiens with 6 samples.

Results

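Transcript levels of 10 genes of bone morphogenetic protein (BMP) signalling were compared between undifferentiated human embryonic stem cells (hESCs, day 0) and neuromesodermal progenitor-like cells made from them (NMP-L cells, day 3). The genes were picked by symbol from the table of all 27672 genes, and all 10 symbols were found there. They are the ligand genes BMP2, BMP4 and BMP7, the secreted antagonist gene NOG, the ID1, ID2 and ID3 genes, and BAMBI, SMAD6 and MSX2, which like the ID genes are known targets of BMP-activated SMAD proteins. Polyadenylated RNA was sequenced in 3 libraries of each condition, labelled as biological replicates, and no label says that they came from separate cultures, so that p-values measure the spread between these libraries. All libraries are labelled WT and came from H9, an established hESC line, and no second line was studied.

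The conditions differ in more than time in culture. Per the labels, the medium of hESCs (DEF, without feeder cells, on fibronectin) held Noggin, the protein that NOG encodes, at 10 ng/ml, next to bFGF at 30 ng/ml, whereas the study's methods name another medium for them and no Noggin. NMP-L cells spent 3 days in N2/B27 medium with CHIR99021 (3 µM), a GSK3 inhibitor that activates Wnt signalling, and bFGF (20 ng/ml). The methods also describe Noggin and the TGFβ receptor inhibitor SB431542 from day 2 to day 4 for cultures on their way to neural progenitors. The labels do not mention them for the NMP-L libraries, so that it is not stated whether the sequenced day 3 cultures had received Noggin or SB431542. The share of time, Wnt activation, medium, bFGF dose, added Noggin and any SB431542 in any difference cannot be told apart in this design. In bulk RNA, fewer cells of a type and less RNA per cell cannot be told apart either.

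BMP ligands bind a complex of type I and type II receptors, which phosphorylates SMAD1, SMAD5 and SMAD9. These join SMAD4 in the nucleus and raise transcription of a short list of genes, of which the ID genes are the best known. Noggin binds the ligands outside the cell, and BAMBI and SMAD6 act further down as inhibitors that the pathway itself induces. In the embryo, BMP activity sets the border between neural and epidermal fate and directs mesoderm towards lateral types.

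Library totals lay between 19454543 and 23036426 expected counts (estimated reads per gene, given by the program RSEM), and 3 counts were taken as the detection floor. All but 1 of the tested marker genes of the 2 labelled cell types were on the side of their label. Of 6 pluripotency genes, 6 were tested and 6 were lower in NMP-L cells. Of 7 neuromesodermal genes 6 were higher, while FGF17 was 7.41-fold lower (edgeR adjusted p = 5.4e-06). Over all genes tested, 29.1% were higher and 26.7% lower. T, CDX1, CDX2 and SP5 reached the expression filter (given below) in NMP-L libraries only, so that they could be tested only because they were higher there. The pluripotency genes POU5F1 and TDGF1 were still at 1127 and 855 TPM (a level scaled for transcript length and library total) in NMP-L cells, against 1990 and 1137 in hESCs. Their list summed to between 4056 and 4281 TPM in hESC libraries and between 2291 and 2440 in NMP-L libraries, and the neuromesodermal list, led by SP5 and NKX1-2, to between 13.4 and 17.1 against between 123 and 170.

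Across the 10 genes, 9 were expressed highly enough to be tested, and these 9 divided into 5 that were higher in NMP-L cells (BMP2, BMP7, ID2, ID3 and MSX2) and 4 that were lower (BMP4, ID1, BAMBI and SMAD6). Among the ligands BMP4 fell while BMP7 and BMP2 rose, and among the ID genes ID1 fell while ID2 and ID3 rose, whereas the inhibitor genes BAMBI and SMAD6 both fell. The test was edgeR's quasi-likelihood test over all 15517 genes that passed an expression filter (about 0.49 CPM, counts scaled by library depth, in at least 3 libraries), with Benjamini-Hochberg adjustment and an adjusted p under 0.05 as the threshold. By this rule 55.8% of all genes tested differed (29.1% higher and 26.7% lower), so a call by itself sets these genes little apart. With a 2-fold minimum added, 7 of the 9 differed (3 higher and 4 lower), against 18.6% of all genes tested (9.38% higher and 9.18% lower). MSX2 is among the 3 and could be tested only because of its level in NMP-L cells. Of the other 8, 2 were at least 2-fold higher and 4 at least 2-fold lower, and the median size of their change was 1.29 on the log2 scale, beside 0.40 for all genes tested. The libraries of the conditions did not overlap for any of the 9, as was so for 61.6% of all genes tested, and 3 libraries against 3 cannot give an exact permutation p under 0.1.

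**Figure D1:**
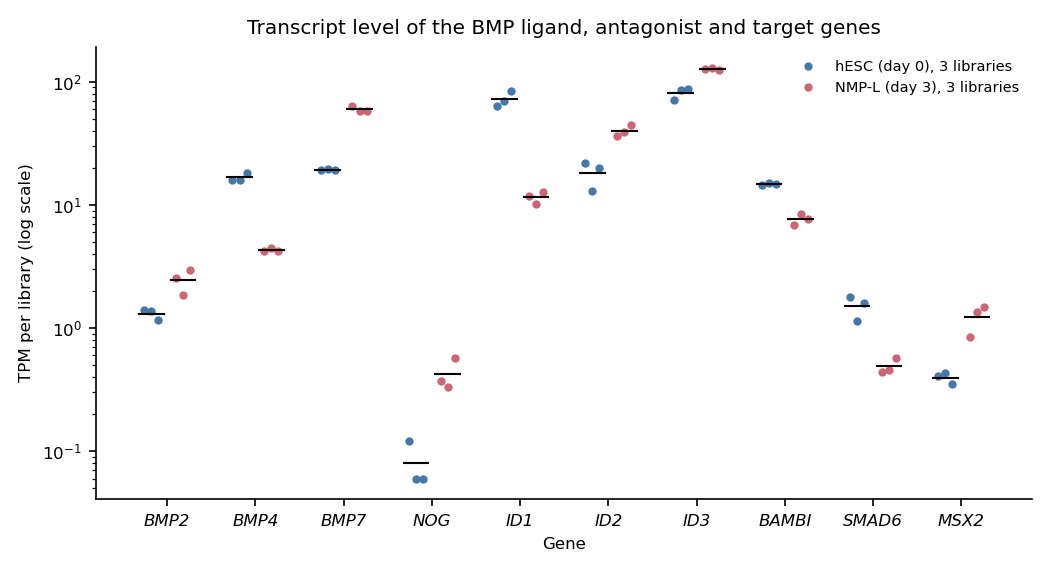
Level of each of the 10 genes in TPM on a log axis, with a point for each hESC library (blue) and each NMP-L library (red) and a black bar at the mean of the 3 libraries. ID3 is the highest gene in both conditions, at 81.3 and 128 TPM, and ID1 drops from 72.8 to 11.5 TPM, with no overlap between the conditions for any gene shown.

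BMP4, a ligand with broad roles in mesoderm and ectoderm patterning, had 251, 275 and 295 counts in hESCs and 75, 76 and 76 in NMP-L cells. The 3 NMP-L libraries lay close together and far under the lowest hESC library. The level was 16.7 ± 1.2 TPM in hESCs and 4.30 ± 0.16 TPM in NMP-L cells (SD, n = 3 each), and BMP4 was 4.23-fold lower (log2 fold change -2.08, standard error 0.13, edgeR adjusted p = 1.5e-07). The gene lies on the reverse strand of chromosome 14 from 54416454 to 54425479 (GRCh37, as all gene positions here).

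BMP7, which can pair with BMP2 or BMP4 in heterodimers, moved the other way. Counts were 696, 774 and 724 in hESCs and 2690, 2303 and 2452 in NMP-L cells, and the lowest NMP-L library held close to 3 times the counts of the highest hESC library. The TPM level rose from 19.3 ± 0.32 to 59.9 ± 3.55 (SD, n = 3 each), and the test gave a 2.90-fold rise (log2 fold change 1.54, standard error 0.09, adjusted p = 9.3e-08). BMP7 spans chromosome 20 from 55743809 to 55841697 on the reverse strand.

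BMP2, a close relative of BMP4, was a minor transcript in both conditions. It had 40, 42 and 34 counts in hESCs and 83, 57 and 99 in NMP-L cells, with replicate 2 the lowest NMP-L library. The rise was 1.75-fold (log2 fold change 0.80, standard error 0.22, edgeR adjusted p = 0.0077). Scaled to HPRT1 counts, the log2 fold change was 0.51 with an adjusted p of 0.15, so that the call for BMP2 depends on the scaling. Its gene lies on chromosome 20 from 6748333 to 6760893.

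Summed over the 3 ligand genes, the level was 37.4 ± 0.99 TPM in hESCs and 66.7 ± 3.53 TPM in NMP-L cells (SD, n = 3 each). In hESC libraries BMP4 made up between 43.3% and 47.1% of this sum and BMP7 between 49.9% and 53.0%. In NMP-L libraries BMP7 made up between 88.9% and 90.5%, and BMP4 between 5.94% and 6.95%. The ratio of BMP7 to BMP4 in TPM lay between 1.06 and 1.22 in the hESC libraries and between 13.0 and 15.2 in the NMP-L libraries. BMP2 stayed a small part of the sum in both conditions, at 3.52% ± 0.45 and 3.68% ± 0.88. The mix of ligand transcripts thus went from near equal parts of BMP4 and BMP7 to mostly BMP7.

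**Figure D2:**
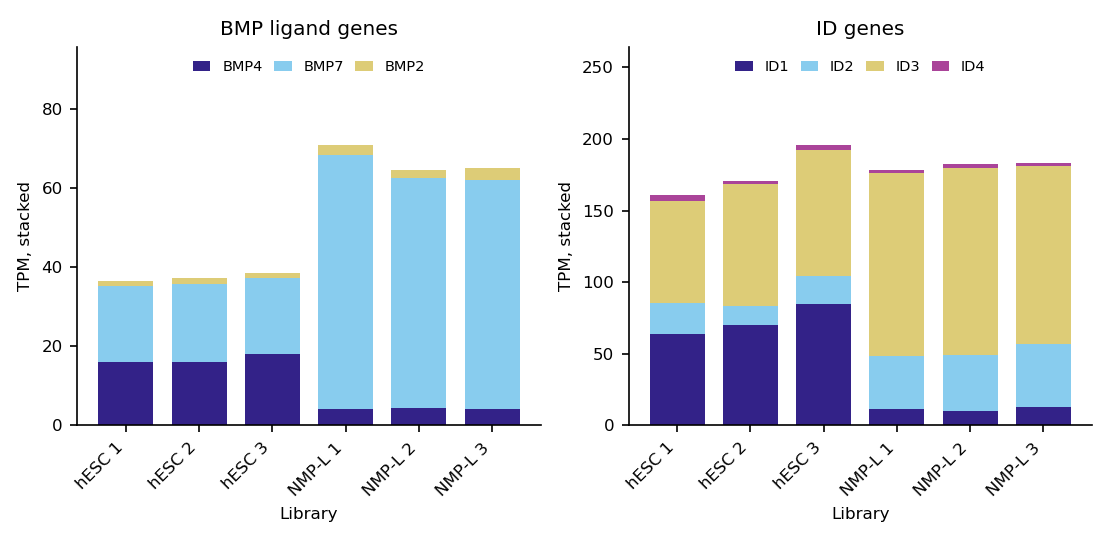
Stacked TPM in each library for the ligand genes BMP4, BMP7 and BMP2 (left) and for ID1, ID2, ID3 and ID4 (right), with bars starting at 0. The ligand sum is higher in the 3 NMP-L libraries, at 64.4 to 70.8 TPM, whereas the ID sum overlaps between the conditions while its ID1 part shrinks from about 41.3% to 6.38%.

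NOG, the gene of the antagonist that the protocol adds as a protein, was close to the floor. It had 2, 1 and 1 counts in hESCs and 7, 6 and 11 in NMP-L cells. Every NMP-L library was above every hESC library, but the gene did not reach the expression filter and was left out of the test above. Pooled over libraries and scaled by depth, 24 counts against 4 gave a ratio of 5.12, with an exact 95% interval from 1.76 to 20.3 that covers counting error only. With no filter beyond 1 count in total, edgeR's test gave an adjusted p of 0.016 for NOG. The level in NMP-L cells was 0.42 ± 0.13 TPM (SD, n = 3). NOG is a gene of 1 exon on chromosome 17 from 54671060 to 54672972.

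The ID genes encode helix-loop-helix proteins without a DNA-binding part, which tie up E proteins and thereby hold back differentiation factors. ID1 had 534, 634 and 735 counts in hESCs and 115, 93 and 125 in NMP-L cells. Its lowest hESC library held more than 4 times the counts of its highest NMP-L library. This was the largest change of the 9 genes tested, a 6.70-fold fall (log2 fold change -2.74, standard error 0.14, adjusted p = 3.4e-08), and only 1.21% of all genes tested had a log2 fold change as low or lower. ID1 lies on chromosome 20 from 30193086 to 30194318 and has 2 exons.

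ID2 had 258, 163 and 242 counts in hESCs and 493, 501 and 607 in NMP-L cells. Replicate 2 was the low library among the hESCs, and without it the log2 fold change was 0.85 in place of 1.04. The TPM level rose from 18.3 ± 4.78 to 40.0 ± 4.01 (SD, n = 3 each), a 2.05-fold rise in the test (standard error 0.16 on the log2 scale, edgeR adjusted p = 2.1e-04). An exon of ID2, on chromosome 2 from 8818975 to 8824591, is overlapped on the opposite strand by ID2-AS1, which had at most 8 counts in any library. BMP4 also has an antisense neighbour, which has no row in the table, and without a stated strand setting reads of such pairs cannot be told apart.

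ID3 was the most abundant of the 10 transcripts per length in both conditions, at 81.3 ± 9.12 TPM in hESCs and 128 ± 3.34 TPM in NMP-L cells (SD, n = 3 each). Its counts were 750, 970 and 964 against 1563, 1502 and 1529, a 1.47-fold rise (log2 fold change 0.55, standard error 0.10, adjusted p = 8.8e-04). Scaled to HPRT1 counts, the log2 fold change of ID3 was 0.24 with an adjusted p of 0.30, so this rise depends on the scaling as that of BMP2 does. In hESCs the levels of ID3 and ID1 overlapped, and in NMP-L cells ID3 was 11.2 ± 1.49 times as high as ID1 (SD, n = 3). The gene lies on the reverse strand of chromosome 1 from 23884417 to 23885992.

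ID4, the fourth gene of the family and outside the 10, was low at 1.9% ± 0.54 of the family's summed TPM in hESCs and 1.11% ± 0.13 in NMP-L cells. It fell by 0.81 on the log2 scale (standard error 0.18, adjusted p = 0.0029), though the fall was not called relative to GAPDH counts. The summed level of the 4 ID genes was 176 ± 18 TPM in hESCs and 181 ± 2.61 TPM in NMP-L cells (SD, n = 3 each), with ranges that overlapped. Within that sum ID1 went from 41.3% ± 1.77 to 6.38% ± 0.68, ID2 from 10.5% ± 3.08 to 22.1% ± 1.95 and ID3 from 46.3% ± 3.06 to 70.4% ± 2.35. The family total thus overlapped between conditions while the part of ID1 shrank and those of ID2 and ID3 grew.

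**Figure D3:**
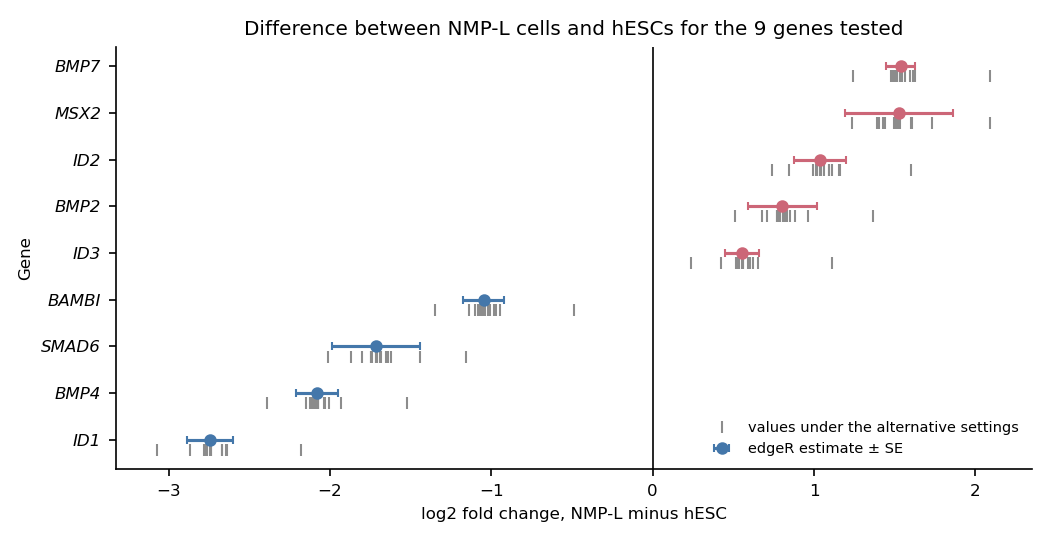
Log2 fold change (NMP-L minus hESC) of the 9 genes tested, as the edgeR estimate with its standard error (points and bars, red higher and blue lower) and as the value under each alternative setting (grey ticks). No tick crosses 0, and ID1 at -2.74 and BMP4 at -2.08 lie farthest from it.

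Since ID1 fell while ID2 and ID3 rose, the promoters of these 3 genes are set side by side. They are the 250 bases before the transcription start in RefSeq's table for GRCh38.p14, at chr20:31605039-31605288 on the forward strand for ID1, chr2:8681806-8682055 on the forward strand for ID2 and chr1:23559502-23559751 on the reverse strand for ID3. Capitals mark the SMAD box CAGAC or its reverse complement GTCTG.
ID1: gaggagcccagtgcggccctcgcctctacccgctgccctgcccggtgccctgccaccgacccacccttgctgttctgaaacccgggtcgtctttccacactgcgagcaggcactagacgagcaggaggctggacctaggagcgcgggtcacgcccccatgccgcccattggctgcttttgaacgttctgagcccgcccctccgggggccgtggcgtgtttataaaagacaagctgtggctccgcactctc
ID2: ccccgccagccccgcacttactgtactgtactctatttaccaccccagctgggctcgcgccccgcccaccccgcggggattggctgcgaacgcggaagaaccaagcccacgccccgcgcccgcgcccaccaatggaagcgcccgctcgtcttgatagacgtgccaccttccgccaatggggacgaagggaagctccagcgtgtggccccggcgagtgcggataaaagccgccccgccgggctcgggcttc
ID3: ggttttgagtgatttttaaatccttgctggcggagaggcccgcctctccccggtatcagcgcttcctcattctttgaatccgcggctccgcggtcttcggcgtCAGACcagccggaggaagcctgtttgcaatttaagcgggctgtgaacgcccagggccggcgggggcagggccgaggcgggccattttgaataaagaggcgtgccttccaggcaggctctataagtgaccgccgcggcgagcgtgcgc
The windows searched also took in the 50 bases after the start, for 300 bases in all. A SMAD box was found once in the ID3 window, with its first base at -147 from the start, and 0 times in the ID1 and ID2 windows. The box is short and stood in 45.3% of the 35116 promoter windows in the table. Neither the GC-rich element GGCGCC, known from BMP-responsive enhancers and held by 19.2% of all windows, nor the TCF/LEF motif CTTTGAT (either strand), held by 2.62%, was in any of the 3 windows. This says only that these letters are not within these bases.

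BAMBI, a membrane pseudoreceptor that dampens TGFβ and BMP signals, was lower in NMP-L cells. It had 218, 245 and 230 counts in hESCs and 119, 139 and 134 in NMP-L cells, and the libraries within each condition lay close together. The TPM level was 14.8 ± 0.30 against 7.65 ± 0.82 (SD, n = 3 each), a 2.07-fold fall (log2 fold change -1.05, standard error 0.13, adjusted p = 3.2e-05). Scaled to GAPDH counts, the fall of BAMBI was -0.49 on the log2 scale with an adjusted p of 0.011. BAMBI lies on chromosome 10 from 28966439 to 28971861.

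SMAD6, an inhibitory SMAD that competes for the activated receptor and SMAD1, had 46, 32 and 43 counts in hESCs and 13, 13 and 17 in NMP-L cells. The conditions did not overlap although both were low, and the fall was 3.28-fold (log2 fold change -1.72, standard error 0.27, adjusted p = 2.3e-04). SMAD7, the other inhibitory SMAD, was at 1.74 ± 0.18 CPM in hESCs and 1.13 ± 0.11 in NMP-L cells, with an adjusted p of 0.043 that rose past the threshold in 12 of 16 alternatives. The SMAD6 gene lies on chromosome 15 from 66994574 to 67075187.

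MSX2, a homeobox factor of limb, neural crest and ectoderm, rose from a low level. It had 8, 9 and 7 counts in hESCs and 19, 29 and 34 in NMP-L cells, and it reached the expression filter in NMP-L libraries only, so that it could be tested only because it was higher there. The fold was 2.89 (log2 fold change 1.53, standard error 0.33, adjusted p = 0.0023), from 0.40 ± 0.04 to 1.23 ± 0.34 TPM (SD, n = 3 each). Its relative MSX1 had 1, 3 and 1 counts in hESCs and 11, 6 and 13 in NMP-L cells, below the filter. MSX2 lies on chromosome 5 from 174151585 to 174157899.

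The BAMBI and SMAD6 promoters are shown because, of the 9 windows of 7 genes in the table, that of BAMBI had the most matches and that of SMAD6 held a long one. The BAMBI window is chr10:28677271-28677520 and the SMAD6 window chr15:66701986-66702235, both forward and on GRCh38.p14. Capitals mark GGCGCC and CAGAC or GTCTG in BAMBI, and the palindrome GTCTAGAC, a known SMAD-binding element, in SMAD6.
BAMBI: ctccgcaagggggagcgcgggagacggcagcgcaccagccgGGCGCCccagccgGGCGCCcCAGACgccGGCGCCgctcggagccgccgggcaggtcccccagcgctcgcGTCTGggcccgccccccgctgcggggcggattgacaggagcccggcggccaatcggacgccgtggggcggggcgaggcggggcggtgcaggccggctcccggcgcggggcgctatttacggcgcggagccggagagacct
SMAD6: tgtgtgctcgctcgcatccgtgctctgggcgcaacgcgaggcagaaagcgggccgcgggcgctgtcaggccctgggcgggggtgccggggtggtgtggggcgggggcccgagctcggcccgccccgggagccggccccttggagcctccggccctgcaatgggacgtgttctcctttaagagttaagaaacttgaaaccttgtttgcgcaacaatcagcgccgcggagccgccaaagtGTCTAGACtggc
BAMBI had GGCGCC 3 times, with first bases at -209, -196 and -181 from the start, and the SMAD box 2 times, at -189 and -140. Its window was 80% G or C, the highest of the 9, against between 56.7% and 69% in the others. The share of all windows with GGCGCC, 19.2%, was not matched for this. SMAD6 had none of the other motifs, but the palindrome had its first base at -12. That palindrome was searched for after the windows had been read, and it stood in 0.202% of all 35116 windows. BMP4, with 3 listed starts, had a SMAD box in each of its 3 windows and GGCGCC 2 times in one, and MSX2 had no match. BMP2, BMP7 and NOG have no window in the table. BAMBI, SMAD6 and BMP4, which held matches, were lower in NMP-L cells, as was ID1, which held none. ID3, which held a match, was higher, as were ID2 and MSX2, which held none.

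**Figure D4:**
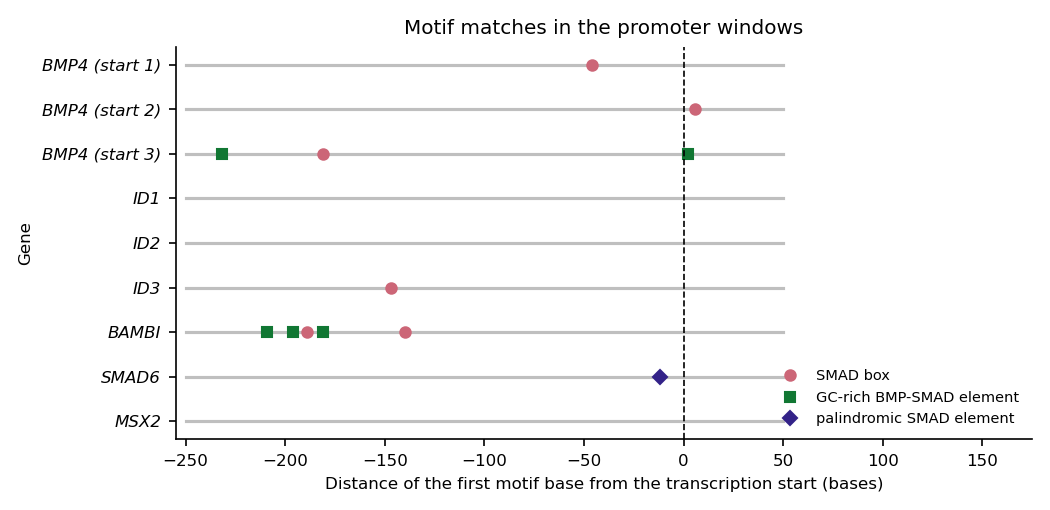
Positions of motif matches on both strands in the 9 promoter windows of 7 genes, as the distance in bases of the first motif base from the transcription start (dashed line), with grey lines for the 300 bases searched. Matches cluster in BAMBI, with 3 GC-rich elements and 2 SMAD boxes, and there are none in ID1, ID2 and MSX2.

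Ordered by TPM, the hESC levels ran from ID3 and ID1 through BMP7, ID2, BMP4 and BAMBI to SMAD6, BMP2, MSX2 and NOG. Neighbours in this order overlapped between libraries for ID3 and ID1, for BMP7 and ID2, for ID2 and BMP4, and for SMAD6 and BMP2. In NMP-L cells the order was ID3, BMP7, ID2, ID1, BAMBI, BMP4, BMP2, MSX2, SMAD6 and NOG, and the last pair alone overlapped. BMP7 passed ID1, and SMAD6 overlapped with NOG. The spread between replicates of TPM was widest for NOG, at 43.3% of its mean in hESCs and 30.4% in NMP-L cells, followed by MSX2 at 28.0% in NMP-L cells and ID2 at 26.2% in hESCs, and narrowest for BMP7 at 1.67% in hESCs.

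For the 3 genes with the largest changes, the tested genes with the closest profile were found by the root mean square difference of their centred log2 CPM over the 6 libraries. For ID1 they were TTYH1 (0.11), ANKRD13B (0.12) and TRIML2 (0.12). For BMP4 they were PDLIM1 (0.04), HLA-DOA (0.05) and CORO1A (0.06), and for SMAD6 they were USP44 (0.06), FGF2 (0.07) and CHSY1 (0.07). With 2 conditions, such closeness mostly reflects a like size of the difference between them.

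The other genes of the pathway were read from 5 lists by role, 63 genes in all. Of these, 42 were tested and 28 differed, 17 higher and 11 lower, a share of the tested genes to be read against the 55.8% over all genes. The counts in each list below are to be read against the 29.1% of all genes tested that were higher and the 26.7% that were lower. With the 2-fold minimum, 8 were higher and 3 lower, but 4 of the 8 (CHRDL2, BMPR1B, ACVRL1 and ATOH8) reached the expression filter in NMP-L libraries only. How many rose and how many fell changed with the scaling, with 24 higher and 3 lower relative to GAPDH counts and 8 higher and 14 lower relative to HPRT1 counts. Without hESC replicate 3, 7 were lower. The median log2 fold change was 0.05, against 0.03 over all genes tested.

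Among 11 other BMP-type ligand genes, 4 were tested, 0 rose and BMP8B fell by 0.81 on the log2 scale (adjusted p = 0.029), a call that did not hold in 9 of 16 alternatives. The expected counts of BMP8B and its close copy BMP8A were fractional in 5 libraries each, which marks reads divided between genes, so that the split between them is uncertain. The remaining 7 were below the filter, 5 of them at or under 3 counts in every library. BMP6 had the highest level of the 11, with a mean of 1.13 TPM in hESCs and 1.06 TPM in NMP-L cells, close to BMP2 in hESCs. The 11 genes summed to at most 2.44 TPM in any library.

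The 18 extracellular antagonists and modulators held 10 tested genes, of which 4 rose and 2 fell. FST, whose product follistatin binds activins and some BMPs, had 160, 190 and 168 counts in hESCs and 1080, 783 and 1139 in NMP-L cells, a 4.92-fold rise (log2 fold change 2.30, standard error 0.13, adjusted p = 6.5e-08). CHRD, the gene of the BMP antagonist chordin, had 14, 19 and 12 counts against 84, 57 and 100, a 4.52-fold rise (adjusted p = 3.1e-05), and its relative CHRDL2 rose 3.21-fold (adjusted p = 0.0019) after reaching the filter in NMP-L libraries only. BMP1, a protease that cleaves chordin, fell by 0.66 on the log2 scale (adjusted p = 0.0011), though the fall was not called relative to GAPDH counts. CHRDL1, a chordin relative with a higher TPM than CHRD and CHRDL2 in both conditions, went down with 566, 598 and 586 counts in hESCs and 398, 460 and 444 in NMP-L cells, a 1.57-fold fall (adjusted p = 3.1e-04) that was not called relative to GAPDH counts. The secreted antagonist genes thus moved in both directions.

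All 11 receptor and coreceptor genes were tested, and 7 rose and 1 fell, beside 29.1% higher and 26.7% lower over all genes tested. BMPR1B, a type I receptor gene, had 5, 6 and 4 counts in hESCs and 55, 72 and 66 in NMP-L cells, a 10.8-fold rise (log2 fold change 3.43, standard error 0.30, adjusted p = 2.6e-06), and ACVRL1, another type I receptor gene, rose 5.89-fold from 0.23 to 1.36 CPM (adjusted p = 1.8e-04). Both reached the filter in NMP-L libraries only. ACVR1 rose 2.11-fold to 48.2 ± 2.63 CPM (SD, n = 3, adjusted p = 2.9e-06). BMPR1A, the type I receptor gene with the highest TPM in both conditions, had a level of 77.2 TPM in hESCs and 70.5 TPM in NMP-L cells, with overlapping libraries and an adjusted p of 0.075. ENG, a coreceptor of endothelial cells, fell by 1.55 on the log2 scale (adjusted p = 2.2e-04). Relative to HPRT1 counts 4 of the 7 rises, those of ACVR2A, RGMA, RGMB and NEO1, were not called.

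Of the 11 SMAD and regulator genes 4 rose and 4 fell, though 2 of those that fell, SMURF1 and SKI, went the other way relative to GAPDH counts. The calls of SKI and SMAD5 were lost in 6 and 5 of 16 alternatives. SMAD1, a BMP-activated SMAD, rose by 0.53 on the log2 scale (standard error 0.09, adjusted p = 4.6e-04), and ZNF423, a partner of SMADs at BMP target genes, by 0.50 (adjusted p = 0.0012). Neither rise was called relative to HPRT1 counts. SKIL, a repressor of SMAD activity that TGFβ signals induce, had 4654, 2778 and 3385 counts in hESCs and 307, 334 and 515 in NMP-L cells, an 11.1-fold fall (log2 fold change -3.47, standard error 0.21, adjusted p = 1.2e-07). SMAD4 was at 117 ± 10.8 CPM in hESCs and 102 ± 9.86 in NMP-L cells (adjusted p = 0.11).

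Other BMP-responsive genes also moved both ways, as the ID genes did. Of 12, 6 were tested, 2 rose and 3 fell, of which TBX3 lost its call in 11 of 16 alternatives. ATOH8, a helix-loop-helix factor, had 5, 4 and 3 counts in hESCs and 94, 77 and 106 in NMP-L cells, a 19.1-fold rise (log2 fold change 4.26, standard error 0.28, adjusted p = 2.5e-07), and it reached the filter in NMP-L libraries only. GATA2, a blood and trophoblast factor, rose 3.75-fold (log2 fold change 1.91, standard error 0.17, adjusted p = 2.3e-06). VENTX, a homeobox gene of the Vent family that BMP induces, had 474, 542 and 505 counts against 86, 77 and 93, a 6.95-fold fall (log2 fold change -2.80, standard error 0.12, adjusted p = 6.4e-09). HAND1, GATA3, TFAP2A and DLX5, genes of cells under strong BMP signals, had at most 13 counts in any library.

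**Figure D5:**
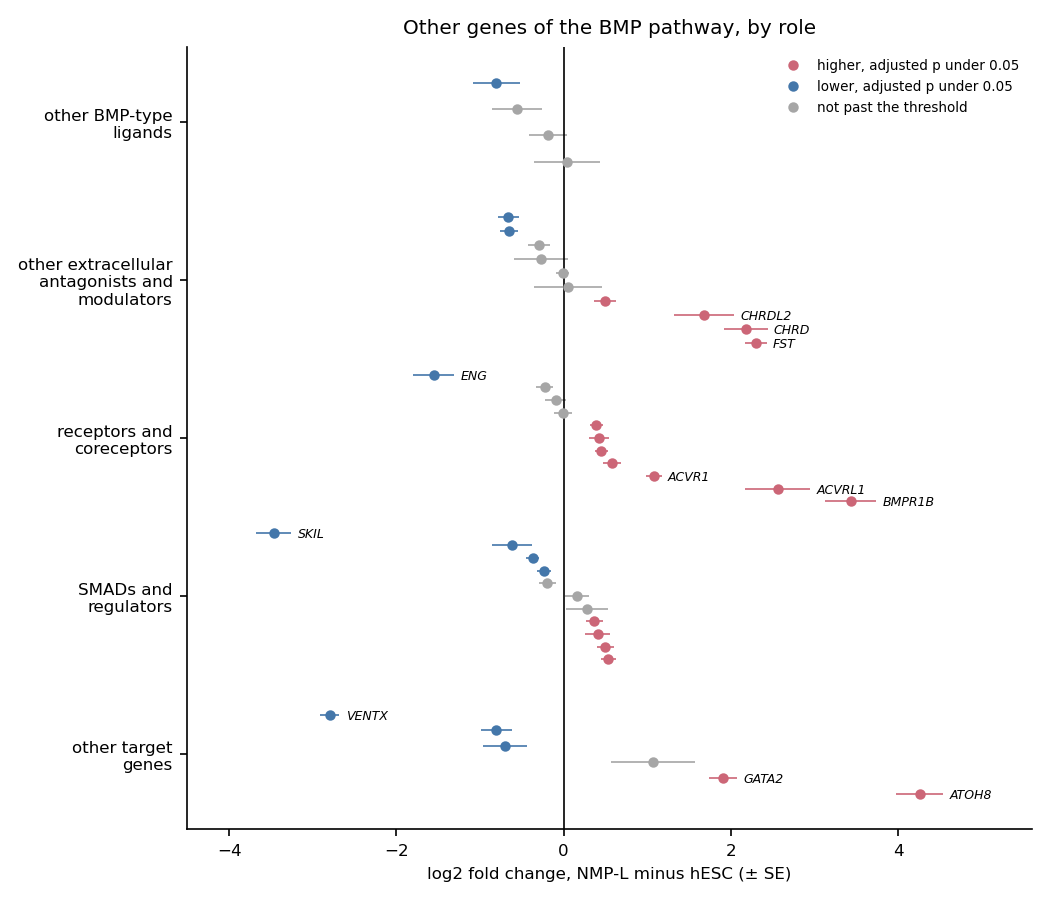
Log2 fold change (NMP-L minus hESC) with its standard error for the 42 other BMP pathway genes tested, in 5 groups by role, coloured by direction for genes at an adjusted p under 0.05 and grey otherwise. Genes that changed at least 2-fold are named and include ATOH8 at 4.26, BMPR1B at 3.43 and SKIL at -3.47.

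Markers of other cell types were read beside these genes. Counts of markers that rose or fell are to be read against 29.1% higher and 26.7% lower over all genes tested. None of the 6 lateral mesoderm genes reached the filter, and their list, with FOXF1 and GATA4 the highest, summed to at most 1.33 TPM in any library. For amnion or surface ectoderm, KRT18, KRT7 and IGFBP3 rose and GABRP fell among 8 genes, of which 4 were tested. Below the filter, ISL1, TFAP2A and TP63 had at most 5 counts in any library. GATA3 of the same list, also below it, had 3, 2 and 6 counts in hESCs and 13, 5 and 7 in NMP-L cells, with overlap. That list, led by KRT18 (415 TPM in hESCs and 551 in NMP-L cells) and IGFBP3 (11.2 and 36.0), summed to between 403 and 465 TPM in hESCs and between 584 and 636 in NMP-L cells. In the neural crest and plate border list of 7 genes, 4 were tested. FOXD3 and SOX10 fell, and SNAI2, which reached the filter in NMP-L libraries only, rose. TFAP2B was at 0 in every library, and the sum went from between 24.97 and 29.66 to between 4.13 and 4.80 TPM. Most of that fall was FOXD3 alone, with a mean of 21.4 TPM in hESCs and 0.78 in NMP-L cells, so the sum says little about the rest of the list. Of 6 paraxial mesoderm genes 4 were tested and 3 fell, with DLL3 and TCF15 the highest in hESCs, while MESP2 was not called. MSGN1 of this list, below the filter, had 0 counts in every hESC library and 7, 4 and 2 in NMP-L cells. The sum of the paraxial list went from between 30.7 and 36.2 to between 13.4 and 16.7 TPM. Of 5 neural progenitor genes SOX1 alone was tested and rose, with OLIG2 next in level in NMP-L cells, PAX6 had 3, 8 and 7 counts in hESCs and 1, 0 and 0 in NMP-L cells, and the sum went from at most 1.15 to at least 5.44 TPM. In the endoderm list HHEX and EOMES rose, EOMES reaching the filter in NMP-L libraries only, HHEX and CXCR4 were the highest of 7, AFP was at 0 in NMP-L libraries, and the sum went from between 6.94 and 8.80 to between 11.6 and 16.0 TPM. The part of these cell types in the changes of the BMP genes was not tested.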

How the data were processed

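RNA-seq libraries of polyadenylated RNA (single-end reads of 76 bp) were used, 3 of hESCs and 3 of NMP-L cells. Expected counts from RSEM were deposited for each gene, not scaled between libraries, and TPM, which RSEM scales by effective transcript length. The submitters' processing notes name cutadapt 1.9.1, STAR 2.5.2a, RSEM 1.3.0, DESeq2 1.12.3 and build hg19. The annotation and the strand setting are not given in the sources used here, and 0 per-sample columns were left unused. A fractional expected count, which marks shared reads, was found for 0 of the 10 genes.

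The rounded counts entered edgeR 4.0.16 (R 4.3.3): filterByExpr with a minimum count of 10 (about 0.49 CPM), TMM scaling, glmQLFit and glmQLFTest for condition, and Benjamini-Hochberg adjustment over all genes tested. The standard error is the log2 fold change divided by the square root of F. CPM are scaled by TMM. Exact permutation tests (two-sided) used log2 CPM with a pseudocount of 0.1. The pipeline was tested on simulated data. Alternatives were RLE, upper-quartile, library-size, GAPDH and HPRT1 scaling, DESeq2 1.42.0, limma 3.58.1 on log2(TPM + 0.1), both other filters, a replicate block and each library left out. No RNA-seq analysis is described in the text of the paper, so the design follows common practice.

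The members, lists and tests were chosen with earlier results of these data known. The shares of summed TPM and the palindrome search were added after values were seen. Named genes are the 10 members, up to 4 genes of each pathway list with the largest called changes and no overlap between conditions, up to 2 of each marker list with the highest levels, and the 3 closest profiles for each of 3 members. Other named genes (SMAD4, BMPR1A, BMP6, BMP8A, MSX1 and further members of counts or lists) were chosen after their values were seen. Gene positions are from GENCODE 44 on GRCh37 and promoters from RefSeq on GRCh38.p14 (7 of 10 genes matched). Motifs were searched on both strands. GGCGCC and GTCTAGAC are their own reverse complements, and neither can hold CAGAC or GTCTG whole.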

Additional observations from a re-analysis of the deposited data

How the results depend on the processing

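Of 307 values for the 10 genes and the counts of genes under alternatives, 293 were taken as the same and 0 reversed. The same meant an unchanged sign and call or, for counts and levels, a move within a set tolerance. For counts this tolerance was wide, and it took in 11455 genes past the threshold relative to GAPDH counts, against 8653. Single pathway genes outside these values did turn, as SKI did relative to GAPDH counts. The fold changes of BMP4, BMP7, ID1, ID2, BAMBI, SMAD6 and MSX2 passed the threshold in each fit that held the gene. MSX2 could not be fitted with at least 10 counts in every library. Relative to HPRT1 counts, 3 of the 10 genes were higher, the log2 fold changes of BMP2 and ID3 were 0.51 (adjusted p = 0.15) and 0.24 (adjusted p = 0.30) in edgeR's test, 8 other pathway genes were higher, and 1793 genes in all were higher. Relative to GAPDH counts, 3 other pathway genes were lower, and 10027 genes in all were higher and 1428 lower. These scalings moved the median of all genes by -0.30 and 0.56, which shifts every gene alike by construction. The share of higher among called members was 55.6% and 42.9% relative to HPRT1 counts. For other pathway genes it was 60.7%, 88.9% relative to GAPDH counts, 36.4% relative to HPRT1 counts, and 70.8% with the replicate block and with limma on TPM, each of which left 7 lower in place of 11 (the cause was not tested). Over all genes the share of higher calls was 52.1%, 87.5% relative to GAPDH counts and 25.3% relative to HPRT1 counts. With no filter beyond 1 count in total, NOG entered the test at a log2 fold change of 2.26, against a pooled log2 ratio of 2.36. Its pooled log2 ratio was 2.43 by library size, 2.91 relative to GAPDH counts and 2.07 relative to HPRT1 counts. NOG has no value under RLE and upper-quartile scaling, DESeq2, limma, the replicate block or the stricter filter. The log2 ratio of mean CPM was -2.08 for BMP4 and 1.54 for BMP7, against -1.96 and 1.63 in TPM.

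With a library left out, all 9 members tested were called each time (5 higher and 4 lower), and between 7 and 10 other pathway genes were lower. The largest adjusted p among these fits was 0.047, for BMP2 without hESC replicate 3. Libraries with the same number share nothing else in the labels. Their deviations from condition means correlated at -0.37, -0.06 and -0.13, which gives no sign of pairing, and with the replicate block the 9 members were called in the same directions and 7560 genes differed in all, against 8653. Depth limits the genes near the floor, NOG above all.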

Other observations

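Several antagonist genes of the lists lay below the expression filter and were not tested. GREM1, the gene of the BMP antagonist gremlin, had 15, 3 and 13 counts in hESCs and 0, 1 and 3 in NMP-L cells, and SOST, a relative of the same family, had 1, 8 and 3 against 0, 0 and 2. TLL1, a chordin-cleaving protease related to BMP1, had 9, 13 and 8 counts in hESCs and 0, 2 and 5 in NMP-L cells. In raw counts GREM1 touched between the conditions at 3, but scaled by depth its lowest hESC library (0.15 CPM) was above its highest NMP-L library (0.13 CPM). SOST overlapped and TLL1 did not overlap, in counts and in CPM. These genes were chosen after their values were seen.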
